A study of Mus musculus with 10 samples.

Results

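Syndecans and glypicans, the cell-surface heparan sulfate proteoglycans of the lens epithelium, were followed through 10 RNA-seq libraries. The members were the rows of the count table with the symbols Sdc1, Sdc2, Sdc3 and Sdc4 for the 4 syndecans and Gpc1, Gpc2, Gpc3, Gpc4, Gpc5 and Gpc6 for the 6 glypicans, which made 10 of the 50763 genes in the table. They were chosen by family name, with earlier results of these data known. The libraries came from mice of the FVB/N strain at 3 weeks of age, with 3 libraries from wild-type (WT) mice, 3 from the transgenic line OVE853 and 4 from the transgenic line OVE918. Both lines were homozygous for a transgene in which the αA-crystallin promoter, active in the lens only, drives human TGF-β1 that is secreted and constitutively active, and both develop anterior subcapsular cataract plaques. A WT or OVE853 library held the pooled epithelial explants of up to 9 mice and an OVE918 library those of up to 7 mice, with both sexes in the pools. The whole explant was used, so that plaque and flat epithelium were read together. In such bulk RNA, fewer cells of a type and less RNA per cell cannot be told apart.

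Syndecans span the membrane with a single pass and end in a short cytoplasmic tail that binds PDZ proteins and cytoskeletal adaptors, whereas glypicans are held to the outer leaflet of the membrane by a lipid (GPI) anchor. Both carry heparan sulfate, a sulfated sugar chain that binds FGFs, WNTs, hedgehog proteins, TGF-β family ligands and fibronectin, and so act as co-receptors and as anchors to the matrix. The pattern of sulfate on the chain, set in the Golgi and edited outside the cell, decides much of what binds, and proteases or lipases can release the whole ectodomain.

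The libraries held 24073311 to 31908525 counts on genes, and these totals and the spread between pools set the precision of each value. Levels are given as CPM, the count of a gene scaled to the size of its library with edgeR's TMM factors, which compares 1 gene between libraries. Mouse Tgfb1, on which reads of the transgene and of the endogenous gene cannot be told apart, had 50.6, 61.8 and 50.7 CPM in the WT libraries, 361, 339 and 349 CPM in OVE853, and 881, 715, 717 and 788 CPM in OVE918. All 12 lens epithelium markers, Pax6, Foxe3 and Cryaa among them, had at least 1 CPM in every library. Their sum was 155000 to 160000 CPM in WT, 105000 to 120000 in OVE853 and 130000 to 197000 in OVE918, and by FDR 1 of the 12 was higher and 4 lower in each line. Lens fiber markers summed to 34400 to 65800, 30700 to 48900 and 45000 to 81900 CPM, and macrophage markers to 20.3 to 49, 47.4 to 75.9 and 32.8 to 84.1 CPM, in the same order of groups. WT replicate 3 stood apart in markers of neighbouring tissue. Its 12 retinal neuron markers summed to 1230 CPM, against 172 and 177 CPM in the other WT libraries, 45.2 to 104 CPM in OVE853 and 38.8 to 179 CPM in OVE918, and 11 of the 12 had at least 1 CPM in each WT library. Its 8 Müller glia markers summed to 4520 CPM, against 1830 to 1970 CPM in the other WT libraries and 994 to 1520 CPM in the transgenic ones. Markers of the non-pigmented ciliary epithelium summed to 1910 to 2160 CPM in WT, 3380 to 3750 in OVE853 and 2530 to 2710 in OVE918. Cp and Aqp1, with 896 and 662 CPM in WT and 1969 and 1266 in OVE853, carried that sum, whereas 4 of the 8 ciliary markers tested were reduced DEGs in OVE853 and 5 in OVE918, against 1 and 0 elevated. Fibroblast markers summed to 317 to 606, 724 to 749 and 442 to 559 CPM. Cornea markers summed to 238 to 1620 CPM in WT and to 26.9 to 93.9 CPM in the lines. Krt12 was at 0 counts in both lines, and Kera was at 0 in all 10 libraries. The part of these tissues in the results was not tested. The comparisons of the lines with WT share the same 3 WT libraries and so are not independent of each other.

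Of the 10 genes, the 4 syndecans and 4 of the glypicans passed the filter on low values (at least 2 FPKM in 5 of the 10 libraries), and Gpc2 and Gpc5 did not. A differentially expressed gene (DEG) was one whose FDR did not exceed 0.05 (edgeR, quasi-likelihood F-test, Benjamini-Hochberg adjustment over all 11094 genes tested) and whose log2 fold change reached 1 in either direction. Every FDR is from that fit unless another tool is named. In OVE853 versus WT, 2 of the 8 were elevated DEGs, Sdc3 and Gpc1, and 0 were reduced, where 4.43% of all genes tested were DEGs (2.51% elevated, 1.91% reduced). In OVE918 versus WT, 3 of the 8 were elevated DEGs, Sdc1, Sdc3 and Gpc1, and 1 was a reduced DEG, Gpc3, where 5.59% of all genes tested were DEGs (2.58% elevated, 3.01% reduced). Counted by FDR alone, 4 of the 8 were higher and 1 lower in OVE853, where 15.8% of all genes passed (8.1% higher, 7.68% lower), and 3 were higher and 3 lower in OVE918, where 19% passed (8% higher, 11% lower). The libraries of the groups did not overlap for 7 of the 8 in OVE853 versus WT, against 45.4% of all genes (23.4% higher, 22% lower), and for 6 of the 8 in OVE918 versus WT, against 27.2% (12.3% higher, 15% lower). The median log2 fold change of the 8 was 0.46 in OVE853 and 0.07 in OVE918, against −0.01 and 0.01 over all genes tested. The syndecans had medians of 0.58 and 0.61 and the glypicans of 0.15 and −0.34 in the same comparisons. DESeq2 called 2 members in OVE853 and 4 in OVE918. When WT replicate 3 was left out, edgeR called 2 in the former line and 3 in the latter.

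**Figure D1:**
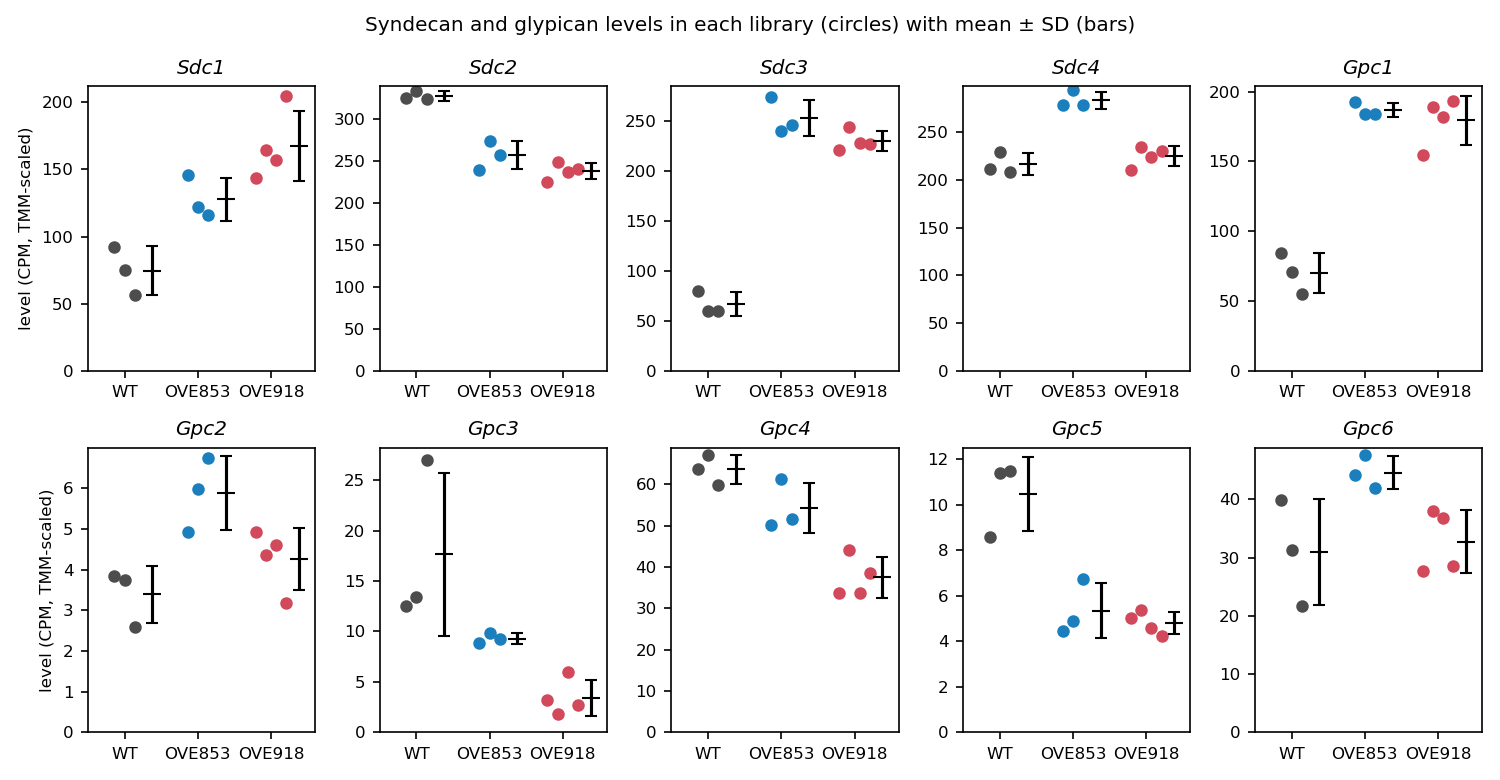
Level of each of the 10 genes (y axis, TMM-scaled CPM, each panel from 0) in the WT, OVE853 and OVE918 libraries (x axis), with 1 circle per library and a bar for the mean ± SD. Sdc3 and Gpc1 show every transgenic library far above the WT libraries, Gpc3 shows 1 WT library at 27.0 CPM above the others, and Sdc2 and Gpc5 show every transgenic library below WT.

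Sdc3, a syndecan best known from neurons, where it takes part in neurite outgrowth and in FGF and pleiotrophin binding, had the largest rise of the 10 genes in both lines. The gene lies on chromosome 4 (GRCm39, 130519826 to 130556217, plus strand). Its level was 80.2, 59.5 and 59.8 CPM in the WT libraries, 274, 239.9 and 245 CPM in OVE853, and 221, 244, 227 and 227 CPM in OVE918. All 7 transgenic libraries lay above all WT libraries, with a gap of more than the whole WT range. Against WT its log2 fold change was 1.93 in OVE853 (SE 0.13, FDR = 7.08e-06, a fold of 3.80) and 1.79 in OVE918 (SE 0.12, FDR = 5.28e-06) by edgeR with Benjamini-Hochberg adjustment. With any 1 library left out, it ranged from 1.85 to 2.08 in OVE853 and from 1.71 to 1.94 in OVE918.

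Sdc1, the main syndecan of simple and stratified epithelia, which binds growth factors and matrix and is shed by metalloproteinases, lies on chromosome 12 (8820854 to 8843725, plus strand). It had 92.6, 75.4 and 56.2 CPM in WT, 146, 122 and 116 CPM in OVE853, and 144, 164, 157 and 205 CPM in OVE918. Every transgenic library was above every WT library, and the lowest WT value was that of replicate 3. Sdc1 thus had a log2 fold change of 0.78 in OVE853 (SE 0.18, FDR = 0.0178), under the fold minimum, and 1.17 in OVE918 (SE 0.18, FDR = 0.000988), by edgeR with Benjamini-Hochberg adjustment. Without WT replicate 3 the value in OVE918 was 0.995 (FDR = 0.00157), just under the fold minimum, and the DEG call was lost. In OVE853 the FDR was 0.0524 without WT replicate 2 and 0.0886 without OVE853 replicate 1.

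For these 2 elevated syndecans the sequence before the start site is shown, because SMAD proteins, the transcription factors of TGF-β signalling, bind DNA at short elements of the kind searched for here. The windows come from RefSeq's GRCm38.p6 promoter table, were matched exactly and once to GRCm39, and end at the first base of the annotated exon. Capitals mark CAGAC, the short element that SMAD proteins bind, and GGGCGG, the GC box of SP1-type factors, each on either strand (GTCTG and CCGCCC), and no match overlaps another. The Sdc1 window is chr12:8821146-8821283, plus strand, whose first bases lie in an exon of another annotated Sdc1 transcript, and the Sdc3 window is chr4:130519598-130519825, plus strand.
Sdc1: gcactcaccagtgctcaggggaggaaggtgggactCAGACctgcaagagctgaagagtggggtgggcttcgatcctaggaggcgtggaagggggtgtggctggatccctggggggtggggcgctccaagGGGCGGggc
Sdc3: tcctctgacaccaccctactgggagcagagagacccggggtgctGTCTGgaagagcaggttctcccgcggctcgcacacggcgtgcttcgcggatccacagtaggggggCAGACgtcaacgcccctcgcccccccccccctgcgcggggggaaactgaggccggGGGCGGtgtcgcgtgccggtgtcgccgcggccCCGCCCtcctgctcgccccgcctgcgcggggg
The 138 bases of Sdc1 held 1 CAGAC and 1 GGGCGG, and 26.8% and 15.1% of all promoters in the table hold them in a window of the same size and place. The 228 bases of Sdc3 held 2 CAGAC and 2 GGGCGG, which 39.4% and 29.5% of promoters hold at least once. TGANTCA, the AP-1 element, and TATAAA were found in neither window. Of the 10 genes, 7 were in the table, and Sdc2, Gpc1 and Gpc6 were not. Gpc1, a DEG elevated in both lines, was thus not searched. Over the full 250 bases before the RefSeq start, CAGAC was found for 2 of the 7, Sdc1 and Sdc3, against 42.2% of 32817 promoters. GGGCGG was found for 7 of 7 against 32.7%. Part of these windows runs into exons of the GENCODE annotation, and for Gpc3 and Gpc4 0 bases lie before them. In the bases that remained, CAGAC was found for 2 of the 7 and GGGCGG for 5 of the 7, with nothing left to search for Gpc3 and Gpc4. No share over all promoters was taken for these cut windows as a set. A match is a description of the letters and not a site at which binding was measured.

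Sdc4, which sits in focal adhesions and signals through protein kinase C alpha when it binds fibronectin, lies on chromosome 2 (164266025 to 164285807, minus strand). It had 212, 229.7 and 208 CPM in WT, 279, 294 and 278 CPM in OVE853, and 211, 235, 224 and 231 CPM in OVE918. The OVE853 libraries were all above WT, and the OVE918 libraries overlapped with WT. For Sdc4 the log2 fold change was 0.39 in OVE853 (SE 0.09, FDR = 0.0137), under the fold minimum, and 0.06 in OVE918 (SE 0.08, FDR = 0.682), by edgeR with Benjamini-Hochberg adjustment. With any 1 of the 3 OVE853 libraries left out, the FDR in OVE853 was 0.0558 to 0.0578. Without WT replicate 3 the log2 fold change of Sdc4 in OVE918 was 0.03.

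Sdc2, the mesenchymal syndecan that acts in fibronectin assembly and binds TGF-β family ligands, was the 1 syndecan that was lower in both lines. The gene lies on chromosome 15 (32920699 to 33035213, plus strand). Its level was 325, 335 and 324 CPM in WT, 240.2, 274 and 258 CPM in OVE853, and 226, 249, 238 and 241 CPM in OVE918. The WT libraries were close together and all 7 transgenic libraries lay below them. The log2 fold change was −0.35 in OVE853 (SE 0.09, FDR = 0.0233) and −0.46 in OVE918 (SE 0.08, FDR = 0.00256) by edgeR with Benjamini-Hochberg adjustment, both short of the fold minimum. In OVE853 the FDR was 0.0638 without WT replicate 2, and 0.109 and 0.085 without OVE853 replicates 1 and 3, while in OVE918 it stayed at or below 0.0145 with any library left out.

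Among the glypicans, Gpc1 alone was elevated in both lines as a DEG. It is the glypican of adult tissues that binds FGFs and takes up growth factors, and it lies on chromosome 1 (92759062 to 92792113, plus strand). Gpc1 had 84.2, 71.0 and 55.1 CPM in WT, 192, 184 and 184 CPM in OVE853, and 154, 189, 182 and 193 CPM in OVE918. All 7 transgenic libraries were above all WT libraries, and the spread among the OVE853 libraries was the smaller one. For Gpc1 the log2 fold change was 1.41 in OVE853 (SE 0.15, FDR = 0.000153, a fold of 2.66) and 1.36 in OVE918 (SE 0.14, FDR = 7.85e-05) by edgeR with Benjamini-Hochberg adjustment. Leaving out 1 library gave 1.27 to 1.57 in OVE853 and 1.21 to 1.51 in OVE918.

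**Figure D2:**
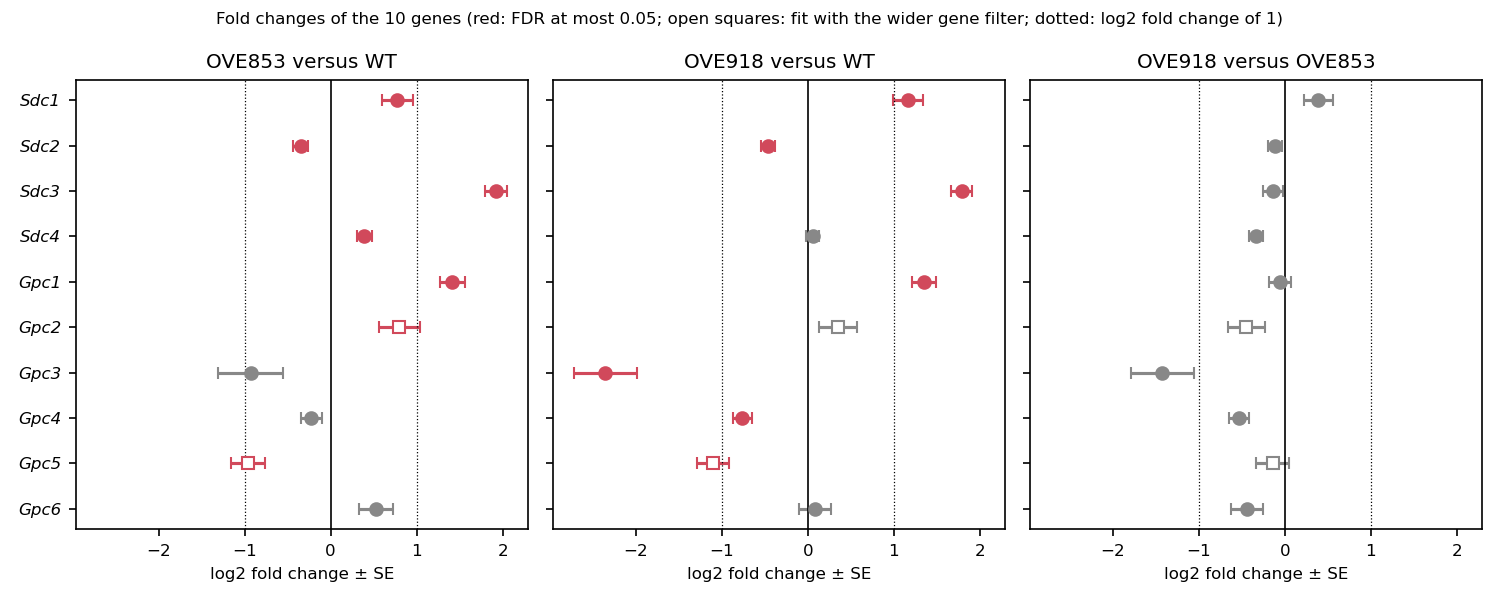
Log2 fold change ± SE (x axis) of the 10 genes (y axis) in OVE853 versus WT, OVE918 versus WT and OVE918 versus OVE853. Red marks an FDR of at most 0.05, open squares the wider gene filter used for Gpc2 and Gpc5, and dotted lines a log2 fold change of 1 in either direction. Sdc3 and Gpc1 lie above 1 in both lines, and in OVE918 Sdc1 lies above 1 and Gpc3 and Gpc5 below −1. Between the lines Gpc3 lies below −1, and none of the 10 is red.

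Gpc3, a glypican that restrains growth and binds hedgehog and WNT proteins, had the largest fall of the 10 genes in OVE918. It lies on the X chromosome (51361303 to 51703137, minus strand), near Gpc4. Gpc3 had 12.6, 13.5 and 27.0 CPM in WT (281, 350 and 769 counts), 8.82, 9.86 and 9.22 CPM in OVE853, and 3.26, 1.86, 5.98 and 2.68 CPM in OVE918. Every OVE853 library lay below every WT library, and every OVE918 library lay below every OVE853 library. Gpc3 had a log2 fold change of −2.36 in OVE918 (SE 0.37, FDR = 0.00137) and −0.93 in OVE853 (SE 0.38, FDR = 0.116) by edgeR with Benjamini-Hochberg adjustment, so that the call was made in OVE918 and not in OVE853. The WT value of 27.0 CPM belonged to replicate 3, the library with 1230 CPM of retinal neuron markers. Without that library the log2 fold change was −1.91 for OVE918, still a DEG, and −0.49 for OVE853 (FDR = 0.398 by edgeR). The retinal neuron sums were 172 to 177 CPM in the other 2 WT libraries, 45.2 to 104 CPM in OVE853 and 38.8 to 179 CPM in OVE918. Cornea markers summed to 238, 938 and 1620 CPM in WT replicates 1 to 3, 62.9 to 93.9 CPM in OVE853 and 26.9 to 82.5 CPM in OVE918. Of the ciliary markers tested, Best2, Slc6a13, Wfdc1, Zic1 and Zic2 had means that fell from WT to OVE853 to OVE918, as Gpc3 had. Cp, Aqp1 and Car14 did not have this order. The part of these tissues in the level of Gpc3 was not tested.

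**Figure D3:**
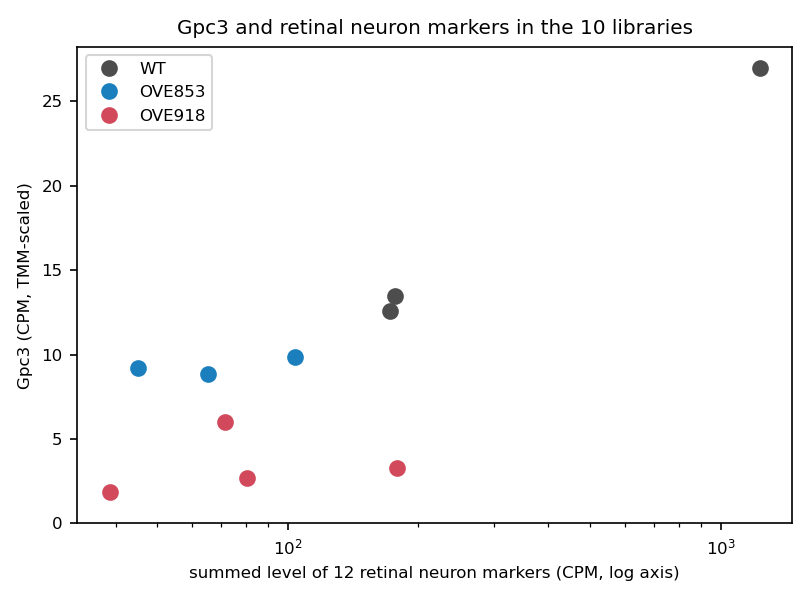
Gpc3 level (y axis, TMM-scaled CPM) against the summed level of 12 retinal neuron markers (x axis, CPM, log scale), with 1 point per library coloured by group. WT replicate 3 stands apart at 1230 and 27.0 CPM, and the 4 OVE918 libraries have the lowest Gpc3 at marker sums of 38.8 to 179 CPM.

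Gpc4, which binds FGFs and BMPs and lies near Gpc3 on the X chromosome (51139255 to 51254262, minus strand), had 63.8, 67.0 and 59.9 CPM in WT, 50.2, 61.2 and 51.6 CPM in OVE853, and 33.7, 44.0, 33.7 and 38.6 CPM in OVE918. The OVE853 and WT ranges overlapped, and all OVE918 libraries lay below all others. The log2 fold change was −0.76 in OVE918 (SE 0.11, FDR = 0.000929), short of the fold minimum, and −0.23 in OVE853 (SE 0.12, FDR = 0.211), by edgeR with Benjamini-Hochberg adjustment.

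Gpc6, a glypican of mesenchyme that takes part in hedgehog signalling, lies on chromosome 14 (117162727 to 118216940, plus strand) and had 39.9, 31.2 and 21.6 CPM in WT, 44.2, 47.6 and 41.9 CPM in OVE853, and 27.7, 38.0, 36.8 and 28.5 CPM in OVE918. The OVE853 libraries lay above WT and the OVE918 libraries overlapped with it. Neither difference passed the test, with log2 fold changes of 0.53 (SE 0.20, FDR = 0.0951) and 0.08 (SE 0.19, FDR = 0.799) by edgeR with Benjamini-Hochberg adjustment. The value in OVE918 turned to −0.12 without WT replicate 3. In OVE853 it was 0.32 (FDR = 0.241) without WT replicate 3 and passed the test without WT replicate 1, at 0.75 (FDR = 0.0204, edgeR). Fibroblast markers had the same order as Gpc6 in OVE853 against WT (724 to 749 against 317 to 606 CPM), and WT replicate 3 was lowest in both, and their part in the level of Gpc6 was not tested.

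Gpc2 and Gpc5 were read with the wider filter of edgeR's filterByExpr, which let 18058 genes into the test. In that test 13.6% of genes passed the FDR in OVE853 and 16.9% in OVE918. Gpc5, whose gene on chromosome 14 (115329647 to 116762591, plus strand) lies near Gpc6, had 8.59, 11.4 and 11.5 CPM in WT, 4.44, 4.89 and 6.74 CPM in OVE853, and 5.01, 5.36, 4.61 and 4.24 CPM in OVE918. All 7 transgenic libraries were below all WT libraries. Its log2 fold change was −0.96 in OVE853 (SE 0.20, FDR = 0.0126) and −1.10 in OVE918 (SE 0.19, FDR = 0.00229) by edgeR with Benjamini-Hochberg adjustment. In OVE853 the FDR was 0.0573 and 0.0556 without OVE853 replicate 1 and replicate 2. Gpc2, a glypican of developing neurons on chromosome 5 (138271917 to 138278288, minus strand), had 3.85, 3.73 and 2.595 CPM in WT, 4.92, 5.97 and 6.74 CPM in OVE853, and 4.93, 4.36, 4.61 and 3.18 CPM in OVE918. The counts behind it were 69 to 198 a library, and its exons overlap those of Gm43720 on the same strand, so that reads of the pair may be shared. The log2 fold change of Gpc2 was 0.80 in OVE853 (SE 0.24, FDR = 0.0486) and 0.35 in OVE918 (SE 0.22, FDR = 0.307) by edgeR with Benjamini-Hochberg adjustment. The first of these missed the threshold when any of 8 libraries was left out, with an FDR of up to 0.187. Without WT replicate 3 the log2 fold changes of Gpc2 were 0.60 in OVE853 and 0.17 in OVE918.

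Between the lines, 0 of the 8 members tested were DEGs by edgeR and 0 passed the FDR alone, where 0.487% of all genes were DEGs (0.0721% elevated, 0.415% reduced) and 1.32% passed the FDR (0.379% higher, 0.937% lower). An unadjusted p under 0.05 was reached by 5 of the 8, against 22.9% of all genes tested, and DESeq2 called 1 of the 8 as a DEG, Gpc3. Gpc3 had a log2 fold change of −1.43 in OVE918 versus OVE853 (SE 0.37, FDR = 0.0789) by edgeR with Benjamini-Hochberg adjustment. Its FDR was 0.00358 with DESeq2, and 0.0291 by edgeR without WT replicate 3, and in both it counted as a DEG, as it did without OVE918 replicate 3 (−1.84, FDR = 0.0334). Gpc4, at −0.53 (SE 0.11), missed the threshold with an FDR of 0.05002, which was 0.0292 without WT replicate 3 and 0.0295 without OVE918 replicate 2, and 0.00251 with DESeq2. Sdc4 had −0.33 (SE 0.08, FDR = 0.0705) and Gpc6 −0.44 (SE 0.19, FDR = 0.192) by the same test. The FDR of Sdc4 was 0.0411 without WT replicate 3, 0.0486 without OVE918 replicate 2 and 0.000585 with DESeq2. For these 4 genes every OVE918 library was below every OVE853 library, a separation that 29.5% of all genes tested showed (13.4% higher, 16.2% lower). Sdc1 had 0.39 (SE 0.17, FDR = 0.208), with overlapping libraries. For Sdc3 the difference was −0.14 (SE 0.11, FDR = 0.466), for Gpc1 −0.06 (SE 0.13, FDR = 0.814) and for Sdc2 −0.11 (SE 0.08, FDR = 0.413), again by edgeR with Benjamini-Hochberg adjustment, while Tgfb1 was higher in OVE918 by 1.15 (SE 0.11, FDR = 0.00388). The median over the 8 was −0.24, against −0.02 over all genes.

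To compare genes with each other, levels were put on a scale per length (FPKM, on unscaled library totals) and each member was taken as a share of its family. Among the syndecans, Sdc4 held 47.7% ± 2.17 of the summed FPKM in WT (SD, n = 3), 47.1% ± 1.40 in OVE853 (SD, n = 3) and 40.2% ± 1.07 in OVE918 (SD, n = 4). Sdc2 followed in WT with 32.9% ± 1.57, then Sdc1 with 14.1% ± 2.82 and Sdc3 with 5.33% ± 0.82, and no neighbours in that order overlapped. In OVE853 Sdc2 had 19.4% ± 1.42, Sdc1 18.2% ± 1.95 and Sdc3 15.3% ± 0.97, and the libraries of Sdc2 and Sdc1 overlapped. In OVE918 Sdc1 came second with 25.6% ± 2.56, followed by Sdc2 with 19.3% ± 0.71 and Sdc3 with 14.9% ± 0.79. The share of Sdc2 depends on the exon length used, since Sdc2 measures 6065 bases over its primary transcripts and 3697 in its canonical one. With the shorter length Sdc2 had the largest share in WT, at 44.5% against 39.4% for Sdc4. The order of Sdc1 and Sdc2 in OVE918 also turned with that length. Sdc2 then held 28.2% (26.8% to 28.9%) and Sdc1 22.8% (21.2% to 26.3%), without overlap. That Sdc1 was above Sdc2 in OVE918 thus holds for the longer length and not for the shorter one.

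In the glypicans, Gpc4 led in WT with 33.0% ± 2.02 and Gpc1 followed with 24.2% ± 4.60, whereas Gpc1 led in OVE853 with 49.1% ± 2.35 and in OVE918 with 58.0% ± 2.56. Gpc3 made up 19.4% ± 9.11 in WT, where replicate 3 alone reached 29.9%, then 7.73% ± 0.23 in OVE853 and 3.55% ± 1.79 in OVE918. In WT the libraries of Gpc1 and Gpc3 overlapped, as did those of Gpc3 and Gpc6. Gpc6 stayed between 13.2% and 14.6% in the means of the 3 groups, and Gpc2 and Gpc5 each held 6.35% or less in the means. Gpc5 depends on the length as well, and with the 2228 bases of its canonical transcript in place of 4637 it held 12.3% in WT. The summed FPKM was 160 ± 7.05 for syndecans and 34.6 ± 0.54 for glypicans in WT, 225 ± 6.50 and 48.5 ± 1.07 in OVE853, and 186 ± 19.8 and 35.1 ± 5.13 in OVE918. The sums are on unscaled library totals, so differences between groups in them include those of scaling. The TMM factors were 0.96 to 1.05 in WT, 1.025 to 1.11 in OVE853 and 0.88 to 1.04 in OVE918. These shares and sums are descriptions without a test.

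**Figure D4:**
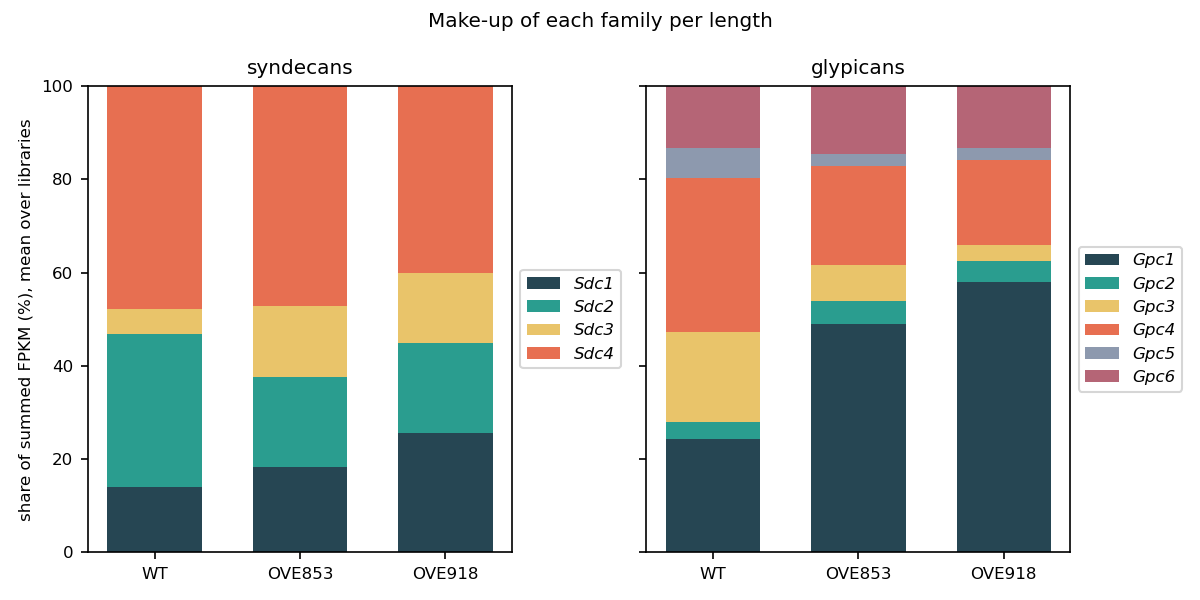
Make-up of the syndecans (left) and the glypicans (right) in WT, OVE853 and OVE918 (x axis), as each gene's share of its family's summed FPKM (y axis, percent, mean over 3, 3 and 4 libraries). The Gpc1 segment grows from 24.2% in WT to 49.1% and 58.0%, that of Sdc3 from 5.33% to 15.3% and 14.9%, and those of Sdc2, Gpc4 and Gpc3 shrink.

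For the 4 members that were DEGs in at least 1 line, the genes with the most similar profile over the 10 libraries were listed by Pearson's r of log2 CPM, as a description that the group differences dominate. Among the genes most like Sdc3 were B4galt5 (r = 0.996) and Bcl3 (0.994). Gpc1 was most like Slc39a1 (0.992), Litaf (0.990) and Ntng2 (0.988). Sdc1 was most like Vit (0.990), Dnajb11 (0.985) and Hddc2 (0.983). Gpc3 was most like Prelp (0.977), Efemp1 (0.974) and Crhbp (0.973). After the group means were taken out, r ran from 0.652 for Bcl3 with Sdc3 to 0.978 for Vit with Sdc1.

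Of the genes that build, edit, release or partner these proteoglycans, 89 were listed in 7 lists and 58 were tested. In OVE853 3 of them were elevated and 3 reduced DEGs (10.3%), and in OVE918 5 were elevated and 5 reduced (17.2%), against 4.43% and 5.59% of all genes, where the lists were put together with earlier results of these data known. By FDR alone, 15.8% of all genes passed in OVE853 and 19% in OVE918. Each list held 2 to 12 tested genes, and in lists so short 0 DEGs is near the shares over all genes. The median log2 fold change over the 58 was 0.08 in OVE853 and 0.00411 in OVE918. When WT replicate 3 was left out, 5 and 9 were DEGs. Adamts4 and Notum were not among these, and not all of these were DEGs in the main fit.

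The enzymes that make the protein linker and polymerize the chain, such as Xylt2, Ext1 and Ext2, had 0 DEGs among 12 tested in either line by edgeR (2 were higher in OVE853 and 2 lower in OVE918 by FDR alone), and their log2 fold changes ran from −0.41 to 0.43. Of 10 tested enzymes and transporters for sulfation and epimerization, 1 was elevated in OVE853 and 2 in OVE918. Hs3st5 and Hs3st1 add the rare 3-O-sulfate group, which the best known ligand of heparan sulfate, antithrombin, needs. Hs3st5 had 2.86 to 6.35 CPM in WT, 7.85 to 9.22 in OVE853 and 11.9 to 14.9 in OVE918. Its log2 fold change was 1.04 in OVE853 (SE 0.26, FDR = 0.0229) and 1.66 in OVE918 (SE 0.25, FDR = 0.000972) by edgeR with Benjamini-Hochberg adjustment, and the call in OVE853 was lost when any of 5 libraries was left out, while without WT replicate 3 the value was 1.51. Hs3st1 had 4.00 to 5.64 CPM in WT and 8.36 to 11.9 in OVE918, a log2 fold change of 1.01 (SE 0.20, FDR = 0.00553 by edgeR), and its call was lost without WT replicate 1, WT replicate 2 or OVE918 replicate 4 (0.89 to 0.99). The extracellular sulfatases, 2 genes tested, had 0 DEGs by edgeR, with 1, Sulf1, lower in OVE918 by FDR alone. Sulf2 had a wide range in WT (7.39 to 42.0 CPM), with 19.2 to 21.6 CPM in OVE853 and 26.7 to 45.4 in OVE918. Its log2 fold changes were 0.02 (SE 0.54, FDR = 0.981) and 0.89 (SE 0.51, FDR = 0.266) by edgeR.

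Of the 10 tested genes for shedding and release, 2 were elevated and 1 reduced in each line. Mmp2, a gelatinase that can cut syndecan ectodomains, had 4.59 to 10.9 CPM in WT, 18.8 to 24.3 in OVE853 and 20.9 to 40.8 in OVE918, with log2 fold changes of 1.40 (SE 0.33, FDR = 0.0179) and 1.86 (SE 0.32, FDR = 0.00244) by edgeR. Without OVE853 replicate 1 or replicate 3 the call in OVE853 was lost, at FDRs of 0.0570 and 0.0732. Adamts4, a proteoglycan-cleaving protease, had 47.0 to 141 CPM in WT, 200 to 233 in OVE853 and 171 to 260 in OVE918. Its log2 fold changes were 1.13 (SE 0.32, FDR = 0.0392) and 1.07 (SE 0.30, FDR = 0.0346) by edgeR, and without WT replicate 3 they were under the fold minimum, at 0.79 and 0.72. Its call was lost when any of 7 libraries was left out in OVE853 and any of 8 in OVE918. Notum, a secreted lipase that removes the lipid from WNT proteins and was first described for releasing glypicans, had 16.7 to 37.8 CPM in WT, 4.30 to 7.88 in OVE853 and 2.98 to 4.01 in OVE918. Every transgenic library was below every WT library, and the log2 fold changes were −1.95 (SE 0.30, FDR = 0.00215) and −2.87 (SE 0.29, FDR = 7.85e-05) by edgeR. Of all genes tested, 22% lay wholly below WT in OVE853 and 15% in OVE918. With any 1 of 5 libraries left out, all 3 WT libraries among them, Notum was under the FPKM filter and was not tested.

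The 10 tested cytoplasmic partners of syndecans had 0 DEGs in either line by edgeR. Past the FDR alone were 0 genes in OVE853 and 3 in OVE918, where 15.8% and 19% of all genes passed. Other heparan sulfate proteoglycans moved in both directions, with 2 of 7 reduced in each line and 1 elevated in OVE918. Col18a1, the basement membrane proteoglycan collagen XVIII, had 377 to 533 CPM in WT, 165 to 196 in OVE853 and 53.7 to 88.7 in OVE918. Its log2 fold changes against WT were −1.29 (SE 0.19, FDR = 0.00168) and −2.73 (SE 0.18, FDR = 5.27e-06), and it was the 1 listed gene that was a DEG between the lines, at −1.44 (SE 0.18, FDR = 0.00966), each by edgeR with Benjamini-Hochberg adjustment. That call between the lines was lost without OVE853 replicate 1 (FDR = 0.0502) or OVE853 replicate 3 (FDR = 0.0677). Tgfbr3, betaglycan, a proteoglycan co-receptor that presents TGF-β to its receptors, had 28 to 45.8 CPM in WT, 13.2 to 15.2 in OVE853 and 8.07 to 10.7 in OVE918. Its log2 fold changes were −1.34 (SE 0.17, FDR = 0.000619) and −1.90 (SE 0.16, FDR = 2.03e-05) by edgeR. Cd44, a hyaluronan receptor with isoforms that carry heparan sulfate, had 172 to 189 CPM in WT, 281 to 336 in OVE853 and 335 to 422 in OVE918, with log2 fold changes of 0.74 (SE 0.11, FDR = 0.00174), under the fold minimum, and 1.07 (SE 0.11, FDR = 6.72e-05) by edgeR.

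Hedgehog genes were listed because glypicans such as Gpc3 and Gpc6 bind these ligands or take part in their signalling. Of 7 tested, 0 were DEGs in OVE853 by edgeR (2 higher and 1 lower by FDR alone). In OVE918 2 were reduced, both co-receptors at the cell surface (1 higher and 3 lower by FDR alone). Ptch1 was higher by FDR in both lines, under the fold minimum, at 0.60 (FDR = 0.018) in OVE853 and 0.52 (FDR = 0.0208) in OVE918 by edgeR. Gli2 was higher by FDR in OVE853 only, at 0.88 (FDR = 0.0256, edgeR). Gas1 had 87.1 to 111 CPM in WT and 39.3 to 49.6 in OVE918, a log2 fold change of −1.21 (SE 0.11, FDR = 3.65e-05 by edgeR), against −0.52 (SE 0.12, FDR = 0.0151) in OVE853, where any 1 of the 3 OVE853 libraries left out gave an FDR of 0.0504 to 0.0629. Cdon had 77.9 to 102 CPM in WT and 32.4 to 49.4 in OVE918, a log2 fold change of −1.08 (SE 0.14, FDR = 0.000349 by edgeR), which was −0.97 without OVE918 replicate 4.

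**Figure D5:**
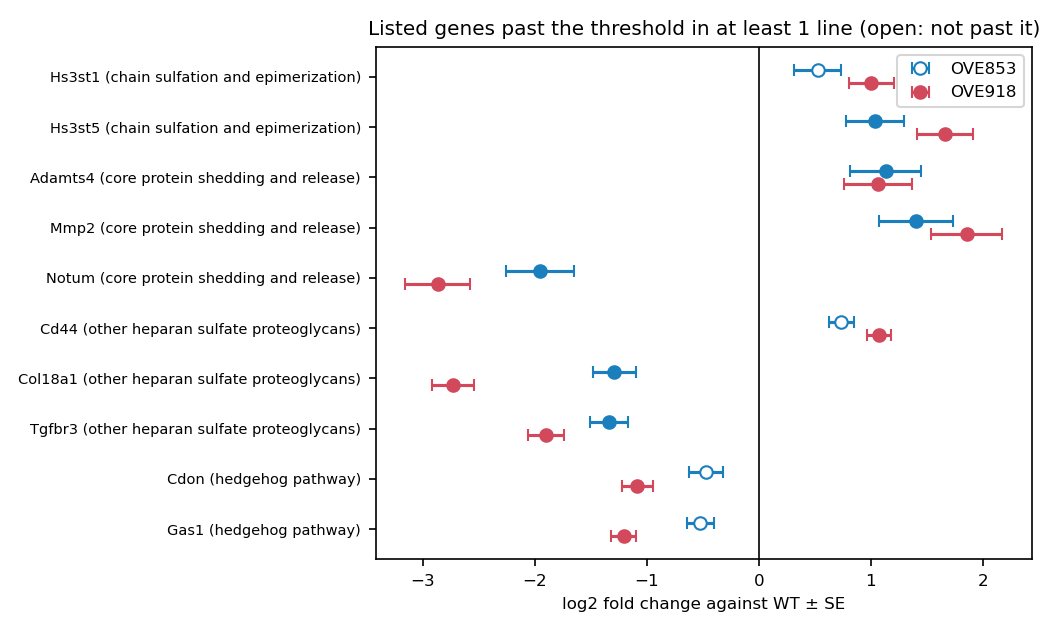
Log2 fold change against WT ± SE (x axis) of the 10 listed genes that were DEGs in at least 1 line (y axis, with their list), for OVE853 (blue) and OVE918 (red), open where the gene was not a DEG. Notum, Col18a1 and Tgfbr3 lie below −1 in both lines, and Hs3st5, Adamts4 and Mmp2 above 1 in both.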

How the data were processed

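Pooled lens epithelial explants of WT, OVE853 and OVE918 mice were sequenced as mRNA libraries. Per the labels, the authors used cutadapt 5.2 for trimming, STAR 2.7.11b for alignment to mm39 (GRCm39) and featureCounts 2.0.8, in reverse-stranded mode, to assign read pairs to RefSeq exons. They deposited the raw counts per gene without normalization, and those counts were used here. Each column was matched to its sample through the short library name in the label, and 0 columns lacked a sample.

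In R 4.3.3 with edgeR 4.0.16, counts were TMM-scaled, the 3 groups were fitted in 1 quasi-likelihood model with robust estimation, and each pair of groups was tested with Benjamini-Hochberg adjustment over all genes tested. A standard error is the absolute log2 fold change over the square root of F. FPKM used GENCODE vM39 exon lengths of primary transcripts, since RefSeq lengths were not used here, and 7489 genes had no length and were not tested. Positions are those of GENCODE vM39. DESeq2 1.42.0, other scalings, filters, designs and lengths, and leaving out each library, served as alternatives. The length of the canonical transcript was added after the data were seen. Steps were tested on simulated data. Replicates are pools of mice and differed by a chi-square per degree of freedom of 12.9 to 131, above counting noise. The authors' RIN values and comparison results were not used.

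All 10 members are named. Of each list, DEGs in at least 1 line are named, and for each member that was a DEG the 3 genes with the highest Pearson r. Results for 1 gene that this rule names are not reported here. Other genes were chosen after their values were seen. The members and lists were chosen with earlier results of these data known.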

Additional observations from a re-analysis of the deposited data

Results flagged for a closer look

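OVE918 replicate 4 lay far from the other OVE918 libraries in 4 family shares. Its share was 29.4% for Sdc1 (next library 24.6%), 18.3% for Sdc2 (next 19.6%), 38.6% for Sdc4 (next 40.6%) and 61.8% for Gpc1 among the glypicans (next 57.0%). Each of these gaps, 0.854 to 0.943 of the whole range of the 4 libraries, is above Dixon's limit, which chance passes in about 1 of 20 groups, and shares within a family move against each other. In CPM, none of the 10 genes had such a gap among the 4 OVE918 libraries, and groups of 3 were not examined.

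In 4 of the genes followed, the effect against WT differed between the lines by the direct edgeR test of OVE918 versus OVE853 (Benjamini-Hochberg adjustment). These were Tgfb1 and 3 of the 58 listed genes tested, while 0 of the 8 members tested passed. Of all 11094 genes tested, 1.32% passed this FDR (0.379% higher, 0.937% lower). The lists were chosen with earlier results of these data known. Col18a1 was lower in OVE918, with a log2 fold change of −1.44 (FDR = 0.00966) and 4 of 4 OVE918 libraries below all OVE853 libraries, and the call was lost without OVE853 replicate 1 (FDR = 0.0502) or replicate 3 (FDR = 0.0677). Gas1 had −0.69 (FDR = 0.025) and Sulf1 −0.84 (FDR = 0.025), also with 4 of 4 libraries below. Leaving out any 1 of the 3 OVE853 libraries ended both calls, with FDRs of 0.0763 to 0.165 for Gas1 and 0.0502 to 0.142 for Sulf1, as did leaving out OVE918 replicate 1 for Sulf1 (0.0692). Tgfb1, on which transgene reads count, had 1.15 (FDR = 0.00388), with 4 of 4 libraries above. Of all genes tested, 16.2% had every OVE918 library below every OVE853 library, and 13.4% had every one above.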

How the results depend on the processing

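For the 10 members and the 10 listed genes that are named, with Tgfb1, 814 of the fold changes recomputed under an alternative kept their direction and their side of the DEG threshold, 37 lost the call, 6 gained it and 3 turned. The listed genes and Tgfb1 were recomputed against WT only. Alternatives under which a gene fell below the filter are not counted, such as those for Notum with any 1 of 5 libraries left out. The 3 that turned were small values that passed no test, namely Gpc6 in OVE918 versus WT (−0.12 without WT replicate 3, leave-one-out range −0.12 to 0.31), and, between the lines, Gpc1 (0.00871 without OVE918 replicate 1, range −0.094 to 0.00871) and Gpc5 (0.084 without OVE853 replicate 3, range −0.24 to 0.084).

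Among the members, counting by FDR without a fold minimum raised those called in OVE853 from 2 to 5 (4 elevated, 1 reduced) and those reduced in OVE918 from 1 to 3, and the wider filters, filterByExpr and no filter beyond 1 count, gave 2 reduced in OVE918 with Gpc5 added. Between the lines, members called and members reduced were 1 with DESeq2 and with a fit of only the 2 groups compared, and 0 to 1 with 1 library left out. Gpc5 passed the fold minimum in OVE853 without WT replicate 1 (−1.07) or OVE853 replicate 3 (−1.18).

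DEGs over all genes in OVE853 went from 491 to 1244 with filterByExpr, 1061 with no filter and 1751 by FDR alone, and in OVE918 from 620 to 1587, 1548 and 2110, where more genes were tested or fewer criteria applied. Between the lines 54 became 107 with DESeq2, 97 with only the 2 groups compared, 146 by FDR alone and 6 to 93 with 1 library left out (6 without OVE853 replicate 1, 93 without WT replicate 3). Listed genes called in OVE853 went from 6 to 18 by FDR alone and to 2 to 6 with 1 library left out. In OVE918 they went from 10 to 20 with filterByExpr, 18 with no filter and 23 by FDR alone, and between the lines from 1 to 2, 3 and 3, and to 0 to 1 with 1 library left out.

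Libraries of different groups with the same replicate number did not deviate together (r of −0.30 to 0.08 over 9 pairs, 0 over 0.1). Those with other numbers had r of −0.399 to 0.389 over 24 pairs, 6 of them over 0.1. The numbers were not used as pairs in the main fit, and batches shared between groups were not tested. A replicate block gave 28 DEGs between the lines. The share of Sdc4 moved with the exon length, from 47.7% to 50.8% over all transcripts and 39.4% in the canonical transcript in WT, from 47.1% to 50.5% and 41.9% in OVE853, and from 40.2% to 43.7% and 35.7% in OVE918. Gpc2 and Gpc5, at 69 to 327 counts, limit what can be read from them.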

Other observations

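Some of the listed genes passed the FDR in both lines at less than the fold minimum, and the following were chosen after their values were seen. Glce, the epimerase that turns glucuronic into iduronic acid in the chain, had 56.0 to 67.5 CPM in WT, 32.9 to 37.0 in OVE853 and 32.3 to 38.3 in OVE918, with log2 fold changes of −0.84 (SE 0.10, FDR = 0.000485) and −0.78 (SE 0.10, FDR = 0.000268) by edgeR with Benjamini-Hochberg adjustment. Hs6st1, a 6-O-sulfotransferase, had 138 to 154 CPM in WT, 97.9 to 105 in OVE853 and 92.7 to 101 in OVE918, with log2 fold changes of −0.51 (FDR = 0.00233) and −0.59 (FDR = 0.000319) by edgeR. Timp3, an inhibitor of the metalloproteinases that shed syndecans, had −0.70 (FDR = 0.00412) and −0.82 (FDR = 0.00057), and Adam10, one of these proteinases, had 0.48 (FDR = 0.0423) and 0.46 (FDR = 0.0339) by edgeR. For Glce, Hs6st1 and Timp3 all transgenic libraries lay below all WT libraries, and for Adam10 all lay above. Of all genes tested, 22% lay wholly below WT and 23.4% wholly above it in OVE853. The shares in OVE918 were 15% below and 12.3% above.

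Between the lines, Sulf1, an extracellular sulfatase that removes 6-O-sulfate from the chain, had 189 to 262 CPM in OVE853 and 109 to 155 in OVE918, a log2 fold change of −0.84 (SE 0.14, FDR = 0.025 by edgeR with Benjamini-Hochberg adjustment), and WT libraries had 184 to 201 CPM. This call was lost without OVE918 replicate 1 or any 1 of the 3 OVE853 libraries (FDR of up to 0.142). Hspg2, perlecan, the large basement membrane proteoglycan, had a wide range in WT (1128 to 3366 CPM) and 4856 to 5314 CPM in OVE853, a log2 fold change of 1.00 that missed the threshold (SE 0.40, FDR = 0.11 by edgeR).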
